A study of Mus musculus with 10 samples.

Results

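A set of 10 genes known as markers of mouse embryonic stem cells (ESCs) was followed through bulk RNA sequencing of 5 ESC lines. They are the Dppa genes Dppa2, Dppa3, Dppa4 and Dppa5a together with Utf1, Sall4, Fbxo15, L1td1, Gdf3 and Trh, which were chosen by name and are 10 of the 21853 genes listed. Levels are given as TPM, the share of a library's transcripts that a gene takes, scaled to a fixed total and corrected for transcript length. Each line had 2 libraries, 10 in all, and all are used here. Nothing states that the 2 libraries of a line came from separate cultures, so p-values measure the spread between these samples, which may be technical. The depth of the libraries is unknown, because the tables hold TPM and no counts.

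Naïve ESCs were wild-type J1 cells, a mouse ESC line in wide use. The study's methods describe their growth on gelatin in serum with mouse LIF, the MEK inhibitor PD0325901 and the GSK3 inhibitor CHIR99021. AKO was J1 with a knockout of AMPK, the energy-sensing kinase, aimed at its catalytic gene Prkaa1. GKO was J1 with a knockout of GYS1, the muscle form of glycogen synthase, and DKO carried both knockouts. These mutants shared the medium of naïve ESCs. Primed ESCs (PJ1) were wild-type J1 cells, described as grown on Matrigel with serum replacement, bFgf and Activin, so the primed state and its medium cannot be told apart. The methods also list a chemically defined medium for each state, and do not say which of them the sequenced cells had. GKO came from single clones made with a Cas9 guide in a coding exon of Gys1, and AKO and DKO from cells sorted for a red fluorescent reporter that repairs the cut in Prkaa1. Which clones each library was made from is not given in the sources used here, so a knockout and a property of its clone cannot be told apart. The questions were how these genes differed with the loss of AMPK, of GYS1 and of both, and between the naïve and primed states.

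As background, embryonic stem cells express a group of genes that are silent in most adult cells and were found by their restriction to these cells and the early embryo. Dppa2 and Dppa4 are partner proteins with SAP domains that bind chromatin and keep many developmental promoters open to later use. They are also known upstream activators of the genes of the 2-cell embryo. Dppa3 (also called Stella) protects methylated DNA in the fertilised egg and restrains the methylation factor Uhrf1. Dppa5a is an RNA-binding protein with a KH domain. Utf1 is a chromatin-bound protein, Sall4 a zinc-finger transcription factor that binds the NuRD co-repressor, Fbxo15 an F-box subunit of a ubiquitin ligase, and L1td1 an RNA-binding protein derived from a LINE-1 element. Gdf3 is a ligand of the TGF-beta family, and Trh encodes the precursor of thyrotropin-releasing hormone.

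The targeted genes were examined first. Prkaa1 was at 15.5 and 16.6 TPM in the naïve libraries, at 7.24 and 6.94 TPM in AKO and at 2.30 and 2.04 TPM in DKO. Its change was -1.07 in AKO (SE 0.068, limma adjusted p = 0.00121) and -2.43 in DKO (SE 0.068, limma adjusted p = 1.900e-07), on the log2(TPM + 1) scale that is used for every fold change here. The level was therefore lower in DKO than in AKO, although both were labelled AMPK knockouts. It was 12.2 and 12.0 TPM in GKO, below naïve ESCs as well (-0.38, limma adjusted p = 0.00155). Prkaa2, the other catalytic gene of AMPK, was at 2.39 and 2.41 TPM in the naïve libraries and at 3.10 to 3.29 TPM in DKO and GKO. It was higher in GKO (change 0.33, limma adjusted p = 0.00785) and in DKO (change 0.30, limma adjusted p = 0.0136). In AKO it did not pass (change 0.07, limma adjusted p = 0.862). Both Prkaa2 values of DKO were above those of Prkaa1. Gys1 was at 11.5 and 10.8 TPM in the naïve libraries, 9.70 and 9.98 TPM in GKO, and 12.1 and 11.7 TPM in DKO. A gene-level TPM does not show a small edit within an exon, so the Gys1 value does not check the GKO and DKO labels.

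All 10 libraries expressed the defining ESC markers Pou5f1, Sox2 and Nanog. Their summed level was 1415 to 1612 TPM in the 8 libraries in naïve medium and 759 and 711 TPM in primed ESCs, with Pou5f1 the most abundant and no marker at 0. All 10 genes of a naïve list (Esrrb, Zfp42 and partners) were lower in primed than in naïve ESCs, and all 8 tested genes of a primed list of 9 (Otx2, Zic2, Dnmt3b and others) were higher, as the labels of the lines say, where 42.5% of all tested genes were lower and 37.4% higher (limma, adjusted p under 0.05).

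Markers of other cell types were low but moved with the lines. Their counts, and those of the gene lists further on, stand beside 24.7% of all tested genes higher and 27.1% lower in GKO, and 21.7% higher and 24.3% lower in DKO (limma, adjusted p under 0.05). The summed level of 5 trophectoderm markers was 12.4 and 11.9 TPM in the naïve libraries, 23.7 and 24.1 TPM in GKO and 20.5 and 22.8 TPM in DKO. All 3 tested markers were higher in GKO and in DKO. Cdx2, a defining transcription factor of trophectoderm, rose from 2.57 and 2.66 TPM in the naïve libraries to 6.62 and 7.27 TPM in GKO (change 1.13, limma adjusted p = 2.834e-04) and to 6.73 and 6.86 TPM in DKO (change 1.11, limma adjusted p = 4.174e-04). Krt8, a keratin of simple epithelia, was the most abundant, and the factors Gata3 and Elf5 stayed under 1 TPM in every library. Gata3 went the other way, at 0.911 and 0.629 TPM in the naïve line, 0.048 and 0.101 TPM in GKO and 0.619 and 0.495 TPM in DKO, and was too low to be tested. The sum of 5 germ cell markers was 19.5 and 20.2 TPM in the naïve libraries and 42.1 and 42.6 TPM in GKO, led there by Tfap2c at 23.2 and 24.3 TPM, and it was 15.8 TPM in both DKO libraries, with no marker at 0 in these lines. The germ cell markers did not move together. In GKO 3 were higher and 2 lower, and in DKO 0 were higher and 2 lower. The 2 lower in either line were Dazl, a germ cell RNA-binding protein, at 6.89 and 7.43 TPM in the naïve line against 3.28 and 3.38 TPM in GKO and 3.30 and 3.42 TPM in DKO, and Prdm1, a transcriptional repressor, at 1.26 and 1.51 TPM in the naïve line and under 0.4 TPM in both mutants. The sum of 5 fibroblast markers was 3.72 and 3.13 TPM in the naïve libraries and 9.54 and 10.7 TPM in GKO, led by Thy1 at 7.14 and 8.48 TPM. Of the 4 tested, 3 were higher in GKO and 1 in DKO. In GKO they were Thy1 (change 1.24), the growth factor receptor Pdgfrb, at 0.394 and 0.370 TPM in the naïve line against 1.57 and 1.5 TPM in GKO (change 0.87), and the collagen Col1a1, at 0.284 and 0.210 TPM against 0.739 and 0.724 TPM (change 0.47). Pdgfrb was the one higher in DKO (change 0.54). The collagens Col1a1, Col1a2 and Col3a1 were under 1 TPM in naïve ESCs and GKO, and Col3a1 was listed at 0 in 4 of the 8 libraries in naïve medium. The sums of 6 primitive endoderm markers were 2.14 and 2.10 TPM in GKO and 1.20 and 0.903 TPM in the naïve libraries, led by Gata4, the one marker tested (change 0.63 in GKO, limma adjusted p = 0.0109), and 7.13 and 0.910 TPM in primed ESCs, led by Sox17. Of 3 neural ectoderm markers, Sox1 led in primed ESCs at 27.2 and 29.6 TPM and stayed under 1 TPM in naïve ESCs. Mesendoderm markers summed to 37.3 and 36.4 TPM in the naïve libraries, to 38.0 and 36.0 TPM in GKO, to 23.7 and 22.3 TPM in DKO, and to 20.2 and 2.84 TPM in the primed libraries. The lower DKO sum came mainly from T (brachyury), at 15.7 and 14.5 TPM in the naïve line against 4.94 and 4.89 TPM in DKO, while Mixl1 was at 1.37 and 1.14 TPM against 1.30 and 1.05 TPM. The change of T in DKO was -1.44 and did not pass in the fit of all 10 libraries (limma adjusted p = 0.0774) but passed in a fit of the 8 in naïve medium (limma adjusted p = 2.409e-06). Nor did the other tested markers, Eomes and Mixl1, pass with 10 libraries in GKO (limma adjusted p = 0.713 and 0.648) or DKO (0.614 and 0.891). With 8 libraries Eomes was lower in GKO (change -0.20, limma adjusted p = 0.00787) and DKO (change -0.28, limma adjusted p = 0.00166). T was higher in GKO in that fit (change 0.26, limma adjusted p = 0.00730), and Mixl1 passed in neither line (limma adjusted p = 0.187 and 0.662). The part of these markers in the results below was not tested. In bulk RNA, fewer cells of a type and less RNA per cell cannot be told apart.

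The 2 primed libraries also differed from each other more than the libraries of the other lines did. The median absolute difference between replicates over tested genes was 0.127 on the log2 scale in primed ESCs and 0.056 to 0.070 in the other 4 lines. Results for the 10 genes are therefore given from the fit of all 10 libraries and, where the call changes, from a fit of the 8 libraries in naïve medium, which was chosen after the values had been seen. Counts for other gene lists are from the fit of 10 libraries unless stated.

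In naïve ESCs the levels of the 10 genes spread widely. Trh was highest at 1347 ± 18.1 TPM (SD, n = 2), followed by Dppa5a at 1178 ± 62.4 TPM and L1td1 at 307.8 ± 2.94 TPM. Utf1 was at 170.8 ± 10.5, Fbxo15 at 130.8 ± 1.75, Sall4 at 87.98 ± 0.519 and Gdf3 at 80.26 ± 2.66 TPM. Dppa2 was at 61.2 ± 2.36 and Dppa4 at 46.4 ± 1.27 TPM, and Dppa3 was lowest at 1.31 ± 0.153 TPM. The ranges of the 2 naïve libraries did not overlap between any neighbours in this order. The order was not the same in the mutants. Trh and Dppa5a overlapped in AKO, and in GKO and DKO every Dppa5a value was above every Trh value. Dppa5a ranked between 48 and 83 among all genes of a library in the 8 libraries in naïve medium. Together the 10 genes took 0.561% to 0.618% of the summed TPM in these libraries, against 0.0974% and 0.0628% in primed ESCs.

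**Figure D1:**
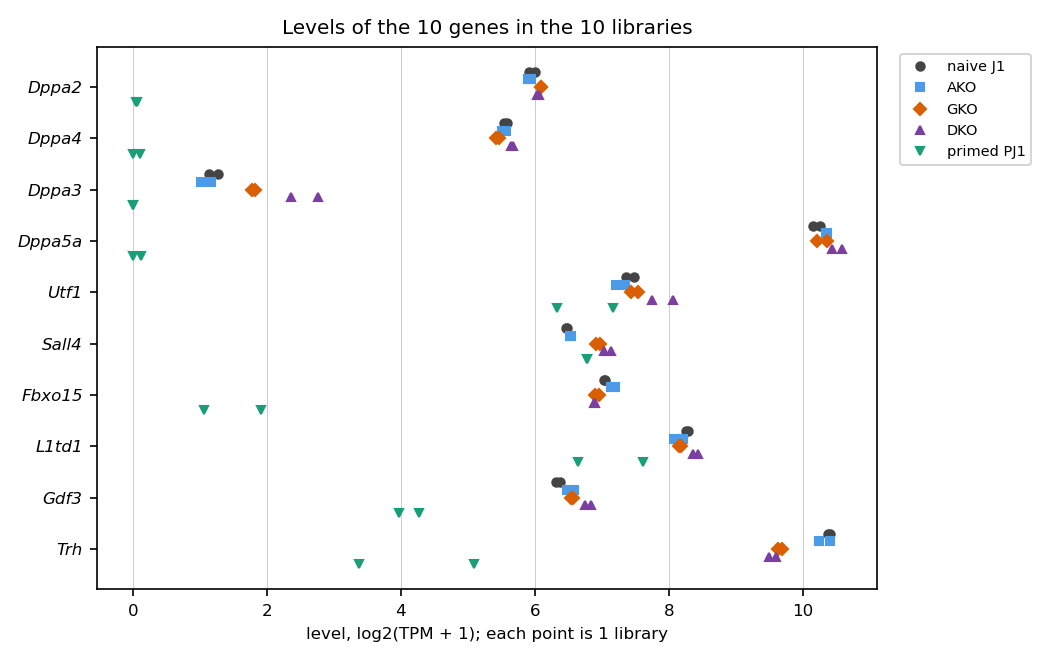
Level of each of the 10 genes in every library, as log2(TPM + 1) on the horizontal axis, with 1 point per library and colours and shapes for the 5 lines. The primed libraries lie near 0 for Dppa2, Dppa4, Dppa3 and Dppa5a and among the other lines for Sall4, while naïve and AKO libraries lie close together for every gene.

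Primed ESCs differed most. Of the 10 genes, 9 were lower and 1 was higher than in naïve ESCs, where 42.5% of the 12060 genes tested were lower and 37.4% higher (limma, adjusted p under 0.05). Dppa2 was at 0.043 and 0.039 TPM in primed ESCs, Dppa4 at 0.076 TPM in the first library and listed at 0 in the second, and Dppa5a at 0.091 TPM and listed at 0. Dppa3 was listed at 0 in both. All 4 Dppa genes were thus at or near 0 in every primed library, and the log2 differences of Dppa2 (-5.90), Dppa4 (-5.51) and Dppa5a (-10.14) describe a loss down to values at which TPM is not precise. Fbxo15 was at 1.09 and 2.75 TPM in primed ESCs (change -5.55, SE 0.21). Trh was at 33.1 and 9.36 TPM (change -6.17, SE 0.42) and Gdf3 at 18.3 and 14.7 TPM (change -2.22, SE 0.088). These genes were lower without overlap, yet still present. L1td1 was at 196 and 99.1 TPM (change -1.14, SE 0.24, limma adjusted p = 0.00174) and Utf1 at 142 and 79.3 TPM (change -0.68, SE 0.22, limma adjusted p = 0.0186). Both rested on the primed libraries, which stood apart from each other. The change of L1td1 was -0.65 without the second primed library and -1.62 without the first, and that of Utf1 was -0.26 and -1.10. The Utf1 call was lost without the second primed library (limma adjusted p = 0.0661) or without the first naïve library (limma adjusted p = 0.0841), under quantile normalization (limma adjusted p = 0.0870) and in the fit of the lines compared (limma adjusted p = 0.0778). Sall4 was the exception, at 108 and 109 TPM in primed against 87.6 and 88.3 TPM in naïve ESCs (change 0.30, SE 0.044, limma adjusted p = 1.767e-04, and a change of 0.54 under quantile normalization).

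In AKO, 0 of the 10 genes passed the test, and 0 had an unadjusted p under 0.05 in the fit of 10 libraries. AKO was close to naïve ESCs in general, with 0.224% of tested genes called in either direction (limma, 27 genes, and 1231 at an unadjusted p under 0.05). The largest difference among the 10 was that of Gdf3, at 88.0 and 95.4 TPM in AKO against 82.1 and 78.4 TPM in naïve ESCs (change 0.19, SE 0.088, limma adjusted p = 0.515). With 8 libraries 0 passed as well, beside 1.09% of tested genes (limma, 131 genes). There 3 of the 10 had an unadjusted p under 0.05, namely Gdf3 (limma adjusted p = 0.134), Fbxo15 (limma adjusted p = 0.168) and L1td1 (limma adjusted p = 0.264). In GKO, 3 of the 10 genes were higher than in naïve ESCs and 0 lower, against 24.7% of tested genes higher and 27.1% lower. In DKO, 4 were higher and 0 lower, against 21.7% higher and 24.3% lower. GKO and DKO are set against the same naïve libraries, so their values are not independent. The median absolute change of the 10 genes was 0.13 in GKO, where it was 0.24 over all tested genes, and 0.38 in DKO, where it was 0.21. In the fit of the 8 libraries in naïve medium, 7 of 10 passed in GKO (4 higher, 3 lower), where 60.4% of tested genes passed in either direction. In DKO 7 of 10 passed in that fit (5 higher, 2 lower), beside 54.8% of tested genes. With 10 libraries 6241 of the 12060 tested genes passed in GKO in either direction, and 5544 in DKO. No difference of the 10 genes from the tested genes as a whole is read from these shares in either fit.

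**Figure D2:**
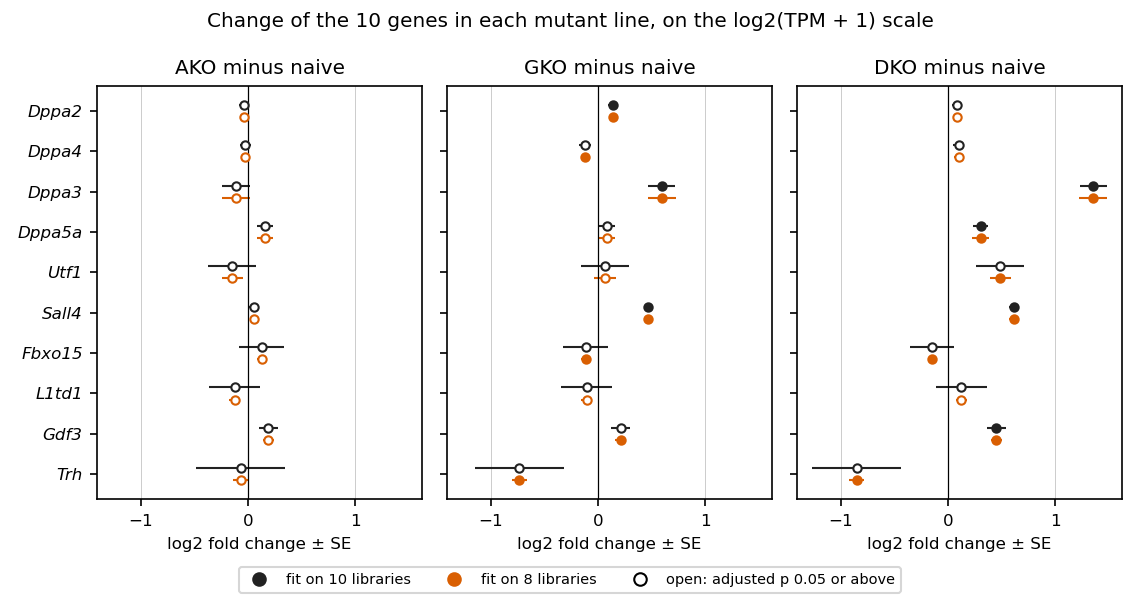
Change of each gene in AKO, GKO and DKO against naïve ESCs, as log2 fold change with its standard error, from the fit on all 10 libraries (black) and on the 8 libraries in naïve medium (orange). Open points did not pass an adjusted p of 0.05; Trh is open in black and filled in orange in GKO and DKO, with the same value of -0.73 and -0.85 in either fit.

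Dppa2 (ENSMUSG00000072419) and Dppa4 (ENSMUSG00000058550) are neighbours on chromosome 16. On the mouse assembly GRCm39, Dppa4 lies at chr16:48104062-48114896 and Dppa2 at chr16:48124105-48140618, both on the plus strand and 9208 bases apart. Dppa2 was at 62.9 and 59.6 TPM in the naïve libraries, 58.5 and 60.6 in AKO, 67.3 and 67.5 in GKO, and 65.7 and 64.3 in DKO. The GKO libraries were above all naïve and AKO libraries, though by a small margin (change 0.14, SE 0.047, limma adjusted p = 0.0369). That call was lost when any 1 of the 4 naïve and GKO libraries was left out (limma adjusted p = 0.0537 to 0.237), with a pseudocount of 0.1 (0.0561), with no intensity trend (0.0578) and with the replicate number as a block (0.0533). Quantile normalization gave a change of 0.22 (limma adjusted p = 0.00606). Dppa4 was at 47.3 and 45.5 TPM in the naïve libraries, 44.6 and 46.6 in AKO, 43.1 and 42.1 in GKO, and 49.1 and 50.2 in DKO. For Dppa4 the GKO libraries were the lowest and the DKO libraries the highest of the 4 lines in naïve medium, without overlap. The change was -0.12 in GKO (SE 0.055, limma adjusted p = 0.0985, and 0.0283 in the fit of 8 libraries) and 0.10 in DKO (SE 0.055, limma adjusted p = 0.178). Under quantile normalization it was -0.02 in GKO (limma adjusted p = 0.825) and 0.18 in DKO, which then passed (limma adjusted p = 0.0375). The ratio of Dppa2 to Dppa4 was 1.33 and 1.31 in naïve ESCs, 1.31 and 1.30 in AKO, 1.34 and 1.28 in DKO, and 1.56 and 1.60 in GKO. The partners therefore kept nearly the same proportion in 3 lines, and GKO stood apart with more Dppa2 per Dppa4. The ratio was formed after the values had been seen and is given as a description with no test. Of the 50-base stretches of the Dppa2 transcript, 33.2% also occur in transcripts of other annotated genes, as do 29.4% for Dppa4, and how many reads of these libraries were shared was not measured.

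Genes of the 2-cell embryo, known targets of Dppa2 and Dppa4, were next to silent in every line. Of 18 genes of this list 16 were matched, and all 16 stayed under 1 TPM in every library, so none was tested. The highest value was 0.912 TPM, for Zscan4f in DKO. Zscan4f, a factor of telomere maintenance in the 2-cell state, was at 0.523 and 0.598 TPM in the naïve libraries, 0.374 and 0.270 in AKO, and 0.912 and 0.349 in DKO. In GKO it was at 0.019 TPM and listed at 0. The 2 GKO values were below those of the other lines in naïve medium, at levels too low for a test here.

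Dppa3 (ENSMUSG00000046323, chr6:122586548-122607237, plus strand) was the least abundant of the 10 and rose the most. It was at 1.42 and 1.20 TPM in the naïve libraries, 1.03 and 1.25 in AKO, 2.44 and 2.53 in GKO, and 4.12 and 5.79 in DKO. Each of these lines was separate from the others except for naïve and AKO, which overlapped. The change was 0.59 in GKO (SE 0.13, limma adjusted p = 0.00457) and 1.35 in DKO (SE 0.13, limma adjusted p = 6.971e-05), and the ratio of mean TPM to naïve ESCs was 1.89 and 3.78. Because a pseudocount of 1 TPM was added, the log2 change understates the change of so low a gene. Some 17.6% of its 50-base stretches are shared with 3 other genes, among them the pseudogene Dppa3-ps. The annotated Dppa3 gene overlaps Gdf3, on the opposite strand, by 650 bases, although the Dppa3 transcript matched here starts 16171 bases beyond the end of Gdf3. The libraries were made with a strand-specific kit, and whether the counting used strand is not given in the sources used here.

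Of 8 genes that write, maintain or remove DNA methylation, 2 were higher and 2 lower in GKO, and 2 were higher and 1 lower in DKO. Uhrf1, the maintenance factor that Dppa3 restrains, was at 242 and 237 TPM in the naïve libraries, 208 and 215 in GKO, then 247 and 253 in DKO. It was lower in GKO (change -0.18, limma adjusted p = 0.00811), and its change was 0.06 in DKO (limma adjusted p = 0.273). Dnmt3l, the inactive cofactor of de novo methylation, fell by 1.88 on the log2 scale in GKO (limma adjusted p = 3.133e-07) and did not pass in DKO (change -0.04, limma adjusted p = 0.611). Dnmt3a, a de novo methyltransferase, was lower in DKO (change -0.68) and Dnmt3b higher (change 0.55). Tet2, a dioxygenase that oxidises methylcytosine, was higher in GKO (change 0.18) and in DKO (change 0.55).

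Dppa5a (ENSMUSG00000060461, chr9:78274031-78278208, minus strand) was among the most abundant mRNAs. It was at 1222 and 1134 TPM in the naïve libraries, 1318 and 1305 in AKO, 1183 and 1311 in GKO, and 1379 and 1529 in DKO. DKO was above all the others, and GKO overlapped naïve ESCs. The change in DKO was 0.30 (SE 0.074, limma adjusted p = 0.00951). That call was lost without the second DKO library (limma adjusted p = 0.0700) and without the second naïve library (limma adjusted p = 0.0752), and with a pseudocount of 0.1 (limma adjusted p = 0.318). In GKO the change was 0.08 and did not pass, but under quantile normalization it was 0.33 and passed (limma adjusted p = 0.00157), beside 0.46 in DKO. More than any other gene here it shares sequence, with 54.0% of its 50-base stretches found in 12 other genes, Dppa5b and Dppa5c among them. A list of 8 genes joined 5 KH-domain relatives with Nlrp5, Tle6 and Padi6 of the oocyte's subcortical maternal complex, and 5 of the 8 stayed under 1 TPM in every library. Of the 3 tested, 3 were higher in GKO, and in DKO 2 were higher and 1 lower. Ooep, which starts 7822 bases from Dppa5a and encodes an oocyte protein, was at 9.99 and 10.0 TPM in the naïve libraries, 13.2 and 13.9 in GKO, then 25.0 and 26.1 in DKO (change 1.27 in DKO, limma adjusted p = 2.915e-06). Khdc3, another oocyte protein of this family, was at 33.9 and 27.9 TPM in the naïve libraries, 56.9 and 65.1 in GKO, then 22.3 and 26.7 in DKO.

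Utf1 (ENSMUSG00000047751, chr7:139523649-139525025, plus strand) was at 178 and 163 TPM in the naïve libraries, 147 and 161 in AKO, 185 and 172 in GKO, and 215 and 267 in DKO. DKO lay above the other lines without overlap, and GKO overlapped naïve ESCs. The change in DKO was 0.49 (SE 0.22) and did not pass in the fit of 10 libraries (limma adjusted p = 0.104), whereas it passed in the fit of 8 (SE 0.099, limma adjusted p = 0.00374). Against AKO the change was 0.63 (limma adjusted p = 0.0429), a call that was lost when any 1 of the 4 AKO and DKO libraries was left out.

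Sall4 (ENSMUSG00000027547, chr2:168590252-168609863, minus strand) gave the firmest difference in the mutants. It was at 87.6 and 88.3 TPM in the naïve libraries, 91.1 and 92.0 in AKO, 124 and 120 in GKO, and 139 and 130 in DKO. GKO and DKO were separate from naïve and AKO and from each other. The change was 0.47 in GKO (SE 0.044, limma adjusted p = 4.841e-05) and 0.61 in DKO (SE 0.044, limma adjusted p = 1.771e-05), or 38.9% and 53.3% on the TPM scale. Of 16 genes of the Sall family and the NuRD complex, 3 were higher and 7 lower in GKO, and 5 were higher and 4 lower in DKO, against 24.7% of tested genes higher and 27.1% lower in GKO and 21.7% and 24.3% in DKO. Sall1, a relative of Sall4, was at 36.4 and 35.7 TPM in the naïve line, 23.7 and 25.8 in GKO and 20.4 and 20.9 in DKO. It was lower in DKO (change -0.78, limma adjusted p = 0.0176), and its change of -0.53 in GKO passed with 8 libraries alone (limma adjusted p = 0.0709 with 10, 4.418e-05 with 8). Sall2 was higher in GKO (change 0.46) and DKO (change 0.78), and Sall3 lower in GKO (change -0.48). The NuRD subunits Mta2 and Mbd3 were lower in GKO (change -0.44 and -0.52) and in DKO (change -0.27 and -0.46), and the remodelling ATPase Chd3 was higher in GKO (change 1.25) and DKO (change 0.46).

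**Figure D3:**
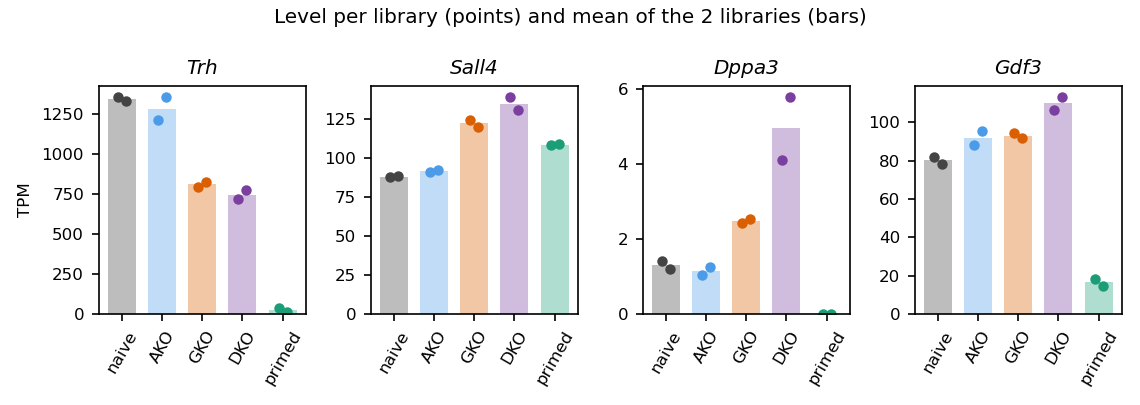
TPM of Trh, Sall4, Dppa3 and Gdf3 in the 5 lines, with bars for the mean of the 2 libraries and points for each library, on linear axes that start at 0. Trh lies at 720 to 829 TPM in GKO and DKO against 1212 to 1360 TPM in the naïve libraries and AKO, Sall4 and Dppa3 are higher in GKO and DKO, and Dppa3 is listed at 0 in both primed libraries.

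Fbxo15 (ENSMUSG00000034391) lies at chr18:84952907-85002843. It was at 132 and 130 TPM in the naïve libraries, 140 and 146 in AKO, 123 and 118 in GKO, and 118 and 117 in DKO. The mutants lacking GYS1 were below naïve ESCs and AKO above them, each without overlap. The changes were -0.12 in GKO (SE 0.21, limma adjusted p = 0.669) and -0.15 in DKO (SE 0.21, limma adjusted p = 0.589), and passed in the fit of 8 libraries (limma adjusted p = 0.0302 and 0.0112). Under quantile normalization the GKO difference was 6.643e-04 and the DKO difference -0.03 (limma adjusted p = 0.920). The core subunits of the ligase into which F-box proteins plug moved separately in GKO, where Skp1a was higher (change 0.30) and Rbx1 lower (change -0.47). In DKO the scaffold Cul1 was lower as well (change -0.47).

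L1td1 (ENSMUSG00000087166, chr4:98614971-98626717, plus strand) was at 310 and 306 TPM in the naïve libraries, 270 and 295 in AKO, 289 and 283 in GKO, and 328 and 344 in DKO. DKO was highest, and AKO and GKO overlapped each other below naïve ESCs. The changes were -0.11 in GKO and 0.12 in DKO and did not pass in either fit (limma adjusted p = 0.740 and 0.705 with 10 libraries, 0.0969 and 0.0620 with 8). Of its partners, Lin28b was higher in GKO (change 0.53, limma adjusted p = 3.165e-04) and Lin28a, an RNA-binding regulator of let-7, lower in DKO (change -0.33, limma adjusted p = 0.00718).

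Gdf3 (ENSMUSG00000030117, chr6:122582317-122587197, minus strand) was at 82.1 and 78.4 TPM in the naïve libraries, 88.0 and 95.4 in AKO, 94.4 and 91.7 in GKO, and 106 and 113 in DKO. All mutant libraries were above both naïve libraries, with DKO highest. The change was 0.45 in DKO (SE 0.088, limma adjusted p = 0.00308). In GKO it was 0.21 (SE 0.088) and did not pass (limma adjusted p = 0.0727), while it passed in the fit of 8 libraries (limma adjusted p = 0.00772) and under quantile normalization (change 0.31, limma adjusted p = 0.0212). Of 14 genes of the Nodal pathway in which Gdf3 acts, 12 were tested. In GKO 3 were higher and 1 lower, and in DKO 1 was higher and 3 lower. With 8 libraries the counts were 3 higher and 4 lower in GKO and 2 higher and 5 lower in DKO, where 60.4% and 54.8% of tested genes passed in either direction. The lowest log2 changes of the list were those of Lefty1 and Lefty2, secreted inhibitors of Nodal. Lefty1 was at 22.0 and 22.2 TPM in the naïve line, 6.90 and 6.88 in GKO and 7.6 and 9.21 in DKO, and its primed libraries held 477 and 34.0 TPM. Its changes of -1.55 in GKO and -1.30 in DKO did not pass with 10 libraries (limma adjusted p = 0.183 and 0.273) and passed with 8 (limma adjusted p = 1.541e-05 and 4.387e-05). Lefty2 was at 238 and 225 TPM in the naïve line, 97.1 and 94.6 in GKO and 96.2 and 97.9 in DKO, against 79.2 and 15.4 TPM in primed ESCs. Its changes of -1.26 and -1.24 likewise passed with 8 libraries alone (limma adjusted p = 0.0840 and 0.0958 with 10, 1.783e-06 and 2.141e-06 with 8). Both genes were thus lower in every GKO and DKO library than in the naïve line, without overlap. The co-receptor Tdgf1, which Gdf3 and Nodal need, was at 431 and 426 TPM in the naïve libraries, 451 and 443 in GKO, then 448 and 450 in DKO, but at 3.05 and 0.543 TPM in primed ESCs. The signal transducer Smad3 was higher in GKO (change 0.92, limma adjusted p = 4.272e-05), the receptor Acvr1b was higher in GKO (change 0.43) and DKO (change 0.44), and Foxh1, the transcription factor that carries the signal to DNA, was lower in GKO (change -0.57) and DKO (change -0.57).

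Trh (ENSMUSG00000005892, chr6:92219021-92221631, minus strand) was the most abundant of the 10 in naïve ESCs. It was at 1360 and 1335 TPM there, 1212 and 1360 in AKO, 793 and 829 in GKO, and 720 and 775 in DKO. Naïve ESCs and AKO overlapped, and every GKO and DKO library was below all of them. On the TPM scale the mean differed from that of naïve ESCs by -39.8% in GKO and by -44.5% in DKO. The log2 changes of -0.73 and -0.85 had an SE of 0.42 in the fit of 10 libraries and did not pass (limma adjusted p = 0.171 and 0.127). In the fit of 8 libraries the SE was 0.069 and both passed (limma adjusted p = 5.733e-05 and 3.568e-05). The SE of the larger fit includes the gap between the primed libraries, 33.1 and 9.36 TPM. The genes that process or receive the hormone were not high in the lines in naïve medium. Of 9, 5 stayed under 1 TPM in every library, among them the receptor Trhr, which was at most 0.047 TPM. Of the 4 tested, Cpe, a peptide-processing carboxypeptidase, was at 5.37 and 5.98 TPM in the naïve libraries, 4.29 and 4.07 in GKO, then 2.94 and 2.98 in DKO (change -0.36 and -0.75). Qpct and Qpctl, which form the pyroglutamate end of the hormone, were higher in DKO (change 0.87 and 0.46).

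Promoters of 3 of the 10 genes were matched in a RefSeq table of the assembly GRCm38.p6, those of L1td1, Trh and Utf1. The 250 bases before the start are shown for Trh and Utf1. Trh had the lowest log2 change of the 10 in GKO and DKO. The Utf1 libraries overlapped naïve ESCs in GKO and lay above them in DKO. Both windows are written 5′ to 3′ on the strand of the gene, from chr6:92244651-92244900 on the minus strand for Trh and chr7:139943606-139943855 on the plus strand for Utf1. Capitals mark matches, on either strand, to AGGTCA (the nuclear receptor half-site), GGGCGG (the GC box), CTTTGT (a Sox or Tcf core), ATGCAAAT (the octamer) and TATAA.

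Trh: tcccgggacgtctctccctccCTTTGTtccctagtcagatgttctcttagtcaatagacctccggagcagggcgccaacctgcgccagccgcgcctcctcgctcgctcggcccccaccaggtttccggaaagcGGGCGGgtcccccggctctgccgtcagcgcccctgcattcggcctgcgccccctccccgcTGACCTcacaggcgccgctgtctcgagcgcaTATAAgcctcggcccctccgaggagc

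Utf1: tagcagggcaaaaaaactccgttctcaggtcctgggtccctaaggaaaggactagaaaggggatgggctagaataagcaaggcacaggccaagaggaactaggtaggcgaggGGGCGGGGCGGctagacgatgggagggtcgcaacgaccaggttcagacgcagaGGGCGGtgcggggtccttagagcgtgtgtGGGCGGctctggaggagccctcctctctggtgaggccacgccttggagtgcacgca

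The Trh window held AGGTCA once, on the minus strand at -57 from the start, GGGCGG at -117, CTTTGT at -229 and TATAA at -26. The Utf1 window held 4 matches to GGGCGG, at -138, -133, -85 and -56, of which the first pair overlaps by a base, and none to the other letters. The L1td1 window held none of them. Among 32851 promoters of the same length, 14.0% held AGGTCA, 32.7% GGGCGG, 16.5% CTTTGT, 22.8% TATAA and 1.60% ATGCAAAT. The Trh window held 25 CpG, the Utf1 window 14 and the L1td1 window 11, where the median promoter held 6. These matches describe the sequence and no factor was measured on it.

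GKO and DKO differ by label in the AMPK knockout, and were compared directly. Of the 10 genes, 4 were lower in GKO than in DKO and 0 higher, where 22.4% of tested genes were lower and 21.2% higher. They were Dppa3 (change -0.76, limma adjusted p = 0.00164), Dppa4 (-0.22, limma adjusted p = 0.0120), Dppa5a (-0.22, limma adjusted p = 0.0391) and Sall4 (-0.14, limma adjusted p = 0.0294). The Dppa3 difference kept its call whichever library was left out, while Dppa4, Dppa5a and Sall4 each lost theirs without at least 1 of the 4 libraries. For Dppa5a the change was then -0.15 without the first GKO or the second DKO library, and -0.12 under quantile normalization (limma adjusted p = 0.124). Its call was also lost with the replicate block (limma adjusted p = 0.0570). The Sall4 call was lost under quantile normalization (limma adjusted p = 0.0802), with no intensity trend (0.0652) and in the fit of the lines compared (0.0660). A pseudocount of 0.1 ended the calls of Dppa4 (limma adjusted p = 0.411) and Dppa5a (0.475). In the fit of 8 libraries 7 genes were lower in GKO, beside 53.4% of tested genes in either direction, and Trh, Dppa2 and Fbxo15 were those that did not pass. The difference of Trh was 0.12 (SE 0.069 in that fit, limma adjusted p = 0.183).

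DKO and AKO, which differ by label in the GYS1 knockout, were compared as well. Their Prkaa1 level also differed (change -1.35 in DKO against AKO, limma adjusted p = 3.385e-06), and its part here was not tested. In DKO 4 of the 10 genes were higher than in AKO, where 22.4% of tested genes were higher, and 0 were lower, where 23.9% were. They were Dppa3 (change 1.46, limma adjusted p = 4.352e-05), Utf1 (0.63), Sall4 (0.55, limma adjusted p = 2.653e-05) and Gdf3 (0.26, limma adjusted p = 0.0386). As for Utf1, the Gdf3 call was lost when any 1 of the 4 libraries was left out. With the replicate number as a block both calls were lost as well (limma adjusted p = 0.0509 for Utf1 and 0.05004 for Gdf3). In the fit of 8 libraries 9 of 10 passed (7 higher, 2 lower), all but Dppa5a, beside 55.2% of tested genes. The 2 lower were Trh (change -0.78, SE 0.069, limma adjusted p = 5.178e-05) and Fbxo15 (change -0.28, limma adjusted p = 5.340e-04).

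The change from naïve ESCs to GKO less that from AKO to DKO was tested. It asks whether the change with the GYS1 knockout differed with the AMPK knockout. Dppa3 was the single gene of the 10 to pass (difference -0.87, SE 0.18, limma adjusted p = 0.00888), where 25.8% of tested genes passed. Its change was 0.59 from naïve ESCs to GKO and 1.46 from AKO to DKO. It passed in every alternative fit in which it was tested, and not where an absolute difference of 1 was also asked for. For Dppa4 the difference was -0.24 (SE 0.078, limma adjusted p = 0.0505). For Trh it was 0.05 (SE 0.59, and 0.097 in the fit of 8 libraries) and for Sall4 -0.08 (SE 0.062, limma adjusted p = 0.355). In the fit of 8 libraries 5 genes passed, beside 37.3% of tested genes, namely Dppa3, Dppa4, L1td1, Utf1 and Fbxo15. The Prkaa1 level of DKO, lower than that of AKO, stands beside these comparisons and its part in them was not tested.

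Neighbouring genes were counted around each of the 10, within 250 kb of the start. Over all tested genes, 24.7% were higher and 27.1% lower in GKO, and 21.7% higher and 24.3% lower in DKO. Dppa3 and Gdf3 share 1 window, with 6 tested neighbours outside the 10 genes. Of these 4 were higher in GKO and 6 in DKO, with 0 lower in either. The 6 were Rimklb, Mfap5, Apobec1, Nanog, Slc2a3 and Foxj2, of which Apobec1 and Nanog did not pass in GKO (limma adjusted p = 0.561 and 0.145). The change of Rimklb, an enzyme that joins glutamate to N-acetylaspartate, was 0.89 in GKO and 0.68 in DKO. That of the glucose transporter Slc2a3 was 0.43 and 0.49, and that of Nanog, the pluripotency factor 93232 bases from Dppa3, was 0.12 and 0.23. Around Sall4, 3 of 3 tested neighbours were higher in GKO and in DKO, namely Nfatc2 (change 0.96 and 0.37), Atp9a (1.06 and 1.01) and Zfp64 (0.33 and 0.36). Around Fbxo15, 3 of 4 were lower in GKO and in DKO, namely Cndp2, Cyb5a and Timm21. Around Trh, 1 of 3 was higher and 1 lower in each. Around Dppa5a, 3 of 8 were higher and 1 lower in GKO, and 2 were higher and 0 lower in DKO. Around Utf1, 2 of 7 were higher in GKO and 1 in DKO, with 0 lower. Around L1td1, 1 of 2 was higher in GKO and 1 lower in DKO. Morc1, the single tested neighbour of Dppa2 and Dppa4 outside the 10 genes, was lower in both (change -0.87 in each). Over the 556 tested genes of chromosome 6 the median change was 0.14 in GKO and -0.01 in DKO, against -0.02 and -0.01 over other chromosomes. Over the 347 of chromosome 16, which holds Dppa2 and Dppa4, it was -0.094 in GKO and -0.044 in DKO, against -0.008 and -0.007. The chromosomes of the remaining members ran from -0.044 to 0.018 in GKO and from -0.027 to 0.029 in DKO. The windows were read with these results known, no test was made of them, and the part of a regional or chromosome-wide shift in the members' changes was not tested.

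**Figure D4:**
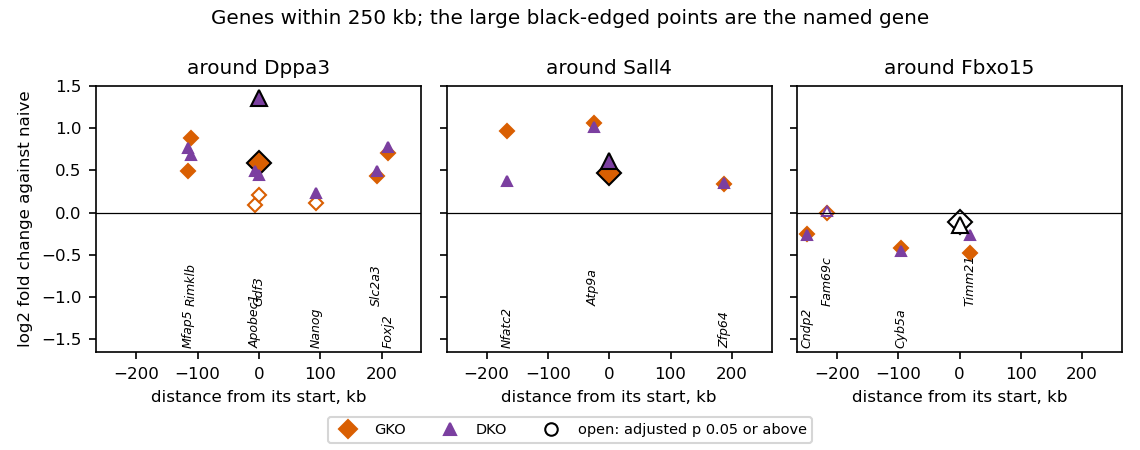
Change of the tested genes within 250 kb of Dppa3, Sall4 and Fbxo15 in GKO (diamonds) and DKO (triangles) against naïve ESCs, plotted by distance from the start of the named gene, whose own change is the large point at 0 kb. Open points did not pass an adjusted p of 0.05; around Dppa3 all 7 neighbours, Gdf3 among them, are filled for DKO, and around Sall4 all 3 are filled for both lines.

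Of 6 further genes cloned from ESC-restricted transcripts, 2 were higher and 1 lower in GKO, and 2 were higher and 1 lower in DKO, where 24.7% and 21.7% of tested genes were higher and 27.1% and 24.3% lower. Khdc3 was higher in GKO (change 0.96) and lower in DKO (-0.32), and Sox15, a Sox factor, was at 2.78 and 3.32 TPM in the naïve libraries and 9.08 and 11.3 in DKO (change 1.46). Of the naïve list of 10, 5 were higher and 1 lower in GKO, and 4 were higher and 0 lower in DKO. Esrrb, an orphan nuclear receptor of the naïve network, was higher by 0.37 in GKO and 0.42 in DKO. Of the 8 tested primed genes, 3 were higher and 1 lower in GKO, while 2 were higher and 5 lower in DKO. Zic2, a zinc-finger factor of the primed state, was at 14.4 and 13.7 TPM in the naïve libraries, 33.7 and 33.3 in GKO, then 4.48 and 5.37 in DKO. The primed genes did not move together. In GKO the others higher were Zic5 (change 0.64) and Cdh2 (change 0.46), and Sox3 was lower (change -0.70). Otx2 (change -0.05), Dnmt3b (change 0.00352), Pou3f1 and Lef1 did not pass there. In DKO the 2 higher were Dnmt3b (change 0.55) and Cdh2 (change 0.50).

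For each gene the tested genes with the most similar pattern over the 8 libraries in naïve medium were sought by Pearson's r of log2(TPM + 1). They share libraries and the step between lines, so r is a description. The closest to Trh was Grk2 (r = 0.997), a receptor kinase, followed by Rai14 (r = 0.993) and Cdc42se2 (r = 0.991). The closest to Sall4 was Sugt1 (r = 0.997), then Ptprg and Msh6, and the closest to Dppa3 was Pglyrp1 (r = 0.997), then Klhdc4 and Alad. For Dppa2 the closest was Tysnd1 (r = 0.974), for Dppa4 Hdgfl2 (r = 0.988), for Dppa5a Mpst (r = 0.982) and for Utf1 Mrpl36 (r = 0.984). For Fbxo15 it was Dld (r = 0.979), for L1td1 Lgals3 (r = 0.968) and for Gdf3 Kdelc1 (r = 0.983). None of the 10 genes was among the 3 closest of another.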

How the data were processed

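RNA of 5 mouse ESC lines, 2 libraries each, was sequenced, and groups and replicate numbers were taken from the sample labels. The authors trimmed the reads, aligned them with STAR, estimated expression with RSEM and deposited the TPM of 21853 protein-coding genes. The submitters' processing notes name Trim Galore 0.6.6, STAR 2.7.9a and RSEM 1.3.3 with GRCm38. The study's methods name GRCm39 and another sequencing kit, and give both this STAR release and another one, so the build is uncertain. The tables hold no coordinates. Positions were taken from the GRCm39 annotation by symbol and promoters from RefSeq. The deposited TPM sum to 500162 to 578952 per library, since genes outside the tables are not counted. No detection limit could be derived. Per-sample columns without a sample numbered 0.

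The deposited TPM were taken to log2 after adding 1, keeping the 12060 genes that reached 1 TPM in 2 or more libraries. All 10 members passed. Genes were tested with limma 3.58.1 (R 4.3.3), with 1 mean per line in a single fit, a prior variance that followed intensity, and p-values adjusted by Benjamini-Hochberg over all genes tested, called at 0.05. For single genes, 2 libraries against 2 allow no two-sided exact p below 0.333. The fit was tested on simulated data in which a small share of genes changed, in GKO alone. There every line had the replicate spread of the lines in naïve medium. The real libraries differ in both respects, so the calls given here were not checked by it. Members are all described. Other genes were named where they belonged to a set list and were called or defined a cell type, had their start within 250 kb of a member, or were the 3 most alike in pattern among genes with a mean of at least 5 TPM. The targeted genes, Zscan4f and Trhr were named outside this rule, the last pair after their values were seen. Members and lists were chosen with earlier results of these data known. Alternatives were another pseudocount, other filters, quantile and median-ratio normalization, no trend, a minimum log2 change of 1, a replicate block, fewer lines, and each library left out.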

Additional observations from a re-analysis of the deposited data

Results flagged for a closer look

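The change of Dppa3 with the GYS1 knockout differed between lines without and with the AMPK knockout, by a test of the difference itself. The difference was -0.87 on the log2 scale (SE 0.18, limma adjusted p = 0.00888), from a change of 0.59 in GKO against naïve ESCs and of 1.46 in DKO against AKO. Dppa3 was at 5.79 TPM or less in every library, and 17.6% of its 50-base stretches are shared with other genes.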

How the results depend on the processing

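No member was called in AKO under any alternative run (beside at most 1.09% of all tested genes), and 8 to 10 were called in primed against naïve ESCs (27.8% to 79.9%). In GKO against naïve ESCs, where 3 were called, quantile normalization gave 5 (beside 49.0% of all tested genes), a minimum log2 change of 1 gave 0 (3.59%), a fit of the lines compared gave 8 (60.5%) and the fit without the primed libraries, chosen after seeing the data, gave 7 (60.4%). In DKO against naïve ESCs, where 4 were called, the last 3 of these gave 1 (2.96%), 7 (52.9%) and 7 (54.8%). In GKO against DKO, where 4 were called, a pseudocount of 0.1, quantile normalization and the fit with no intensity trend each gave 2 (43.0%, 43.4% and 42.5%), the minimum change gave 0 (2.68%) and the fit without the primed libraries 7 (53.4%). In DKO against AKO, where 4 were called, the fit with no trend gave 2 (45.8%), quantile normalization 7 (44.3%), the minimum change 1 (3.11%), the lines compared 8 (51.4%) and the fit without the primed libraries 9 (55.2%). For the change from naïve ESCs to GKO less that from AKO to DKO, where 1 was called, the minimum change gave 0 (2.89%), and the fits of the lines compared and without the primed libraries gave 5 each (37.3%). Both of these fits leave out the primed libraries, whose spread enters the fit of all lines. With each library left out in turn, the counts were 2 to 3 in GKO against DKO (29.1% to 32.5%) and 2 to 2 in DKO against AKO (34.0% to 35.3%). Without the filter at 1 TPM no count was lost by more than 1.

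The replicate numbers did not pair the libraries: over 10 pairs of lines, 0 had a correlation of replicate deviations over 0.1 (r from -0.128 to 0.0780). The fit with the replicate block gave 2 members in GKO against naïve ESCs (50.1% of all tested genes), 4 in DKO against naïve ESCs (44.6%), 3 in GKO against DKO (41.7%) and 2 in DKO against AKO (44.9%).

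The signs of a few small changes turned. Under quantile normalization the change in GKO was 6.643e-04 for Fbxo15 and 0.0174 for L1td1. With libraries left out in turn, the change in AKO ran from -0.0536 to 0.00597 for Dppa4 and from -0.152 to 0.0133 for Trh. The change from naïve ESCs to GKO less that from AKO to DKO turned sign for other members. It ran from -0.0274 to 0.0501 for Dppa2 and from -0.140 to 0.00866 for Dppa5a. For Gdf3 it ran from -0.106 to 0.00976 and for Trh from -0.0339 to 0.131. None of these passed the test in the fit of all libraries, and the cause was not tested. Over all members and alternatives 882 values kept their sign and call, 61 lost the call, 47 gained it and 13 turned sign. The unknown depth leaves the precision of values under 1 TPM unknown.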
